A study of Mus musculus with 6 samples.

Results

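Nuclear genes that encode the subunits of the mitochondrial respiratory chain, cytochrome c and part of the assembly machinery were followed in activated mouse B cells with and without hnRNPL, an RNA-binding protein that controls splicing. The members were all genes in the table whose symbol starts with Nduf followed by a, b, c, s or v, with Uqcr, with Cox and a number, or with Atp5, together with the *Sdh* genes of complex II, *Cyc1* and *Cycs*, leaving out symbols that hold -ps. There were 110 such genes of 55421 in the table, under 109 symbols, because *Atp5o* is listed under 2 identifiers. Of these, 101 had a mean of at least 10 normalized counts (read counts divided by a size factor per library) and were tested with 17640 genes in all. B cells from the spleen were cultured with LPS (5 µg/ml) and IL-4 (5 ng/ml) for 24 h and sorted for GFP+ cells, and each group had 3 libraries. The control group (WT) came from CD21-cre mice and the hnRNPL-deficient group (KO) from hnRNPL F/F CD21-cre mice, which carry floxed alleles on both chromosomes. All had the Rosa mT/mG reporter and were on a C57BL6/J background, of either sex and older than 6 weeks. All animals thus carried the Cre, which is driven by the *Cr2* (CD21) promoter and acts mostly from the mature B cell stage. They also carried the reporter, which switches from tdTomato to GFP in cells where Cre has been active. GFP marks Cre activity and not loss of the protein. The paper found hnRNPL F/F CD21-cre mice smaller than controls. It proposes that hnRNPL matters in further tissues where this Cre acts during development. The study measured mitochondrial mass, oxygen consumption and reactive oxygen species in purified splenic B cells of CD21-cre mice with and without floxed hnRNPL alleles. Its RT-qPCR of major electron transport chain components found transcripts unchanged or up by less than 1.5-fold. Its enrichment analysis with mitochondrial gene sets gave no significant changes. The question here is whether the sequenced transcripts of the respiratory chain differed, complex by complex.

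The respiratory chain sits in the inner mitochondrial membrane. Complex I (NADH dehydrogenase) and complex II (succinate dehydrogenase) pass electrons to ubiquinone, complex III (cytochrome bc1) passes them to cytochrome c, and complex IV (cytochrome c oxidase) hands them to oxygen. Complexes I, III and IV pump protons, and complex V (ATP synthase) uses the proton gradient to make ATP. Most subunits are encoded in the nucleus, and a small set in mitochondrial DNA, so that assembly needs both genomes and dedicated assembly factors. Activation by LPS and IL-4 makes B cells grow and divide and raises their demand for ATP and for biosynthetic precursors. Complex IV is unusual in having paralogous subunits, of which 1 form is used in nearly all tissues and the other mainly in muscle, testis or lung.

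The libraries held 40395186 to 75180749 reads on genes, with KO3 the shallowest, and 24009 to 26283 genes were detected in each. *Hnrnpl* itself stood at 24371, 25579.7 and 24174 normalized counts in WT1 to WT3 and 2178, 1519 and 1297 in KO1 to KO3, which is 6.74% of WT. B cell markers were abundant in every library (6 of 6 tested, summed 246923 to 321999 normalized counts). T cell markers summed to 654 to 1030 normalized counts, nearly all *Lck*, and *Cd3e* and *Cd4* did not exceed 2 in any library. Myeloid markers summed to 260 to 331 in WT and 1239 to 1382 in KO, nearly all of it *Adgre1*, while 6 of the 7 stayed under 25 everywhere and *S100a8* and *S100a9* were at 0 in all 6 libraries. Erythroid markers summed to 17.6 to 38.3 in WT and 55.0 to 84.8 in KO, natural killer cell markers to at most 7.21, and the 3 plasma cell markers to 1389 to 1907. Among the last, *Jchain* was lower in KO without overlap, at 117, 109 and 26.0 in WT1 to WT3 and 23.4, 7.07 and 13.7 in KO1 to KO3 (adjusted p = 0.0509 by limma), while *Sdc1* and *Prdm1* overlapped. *Xist* was at 98507 in WT3, at 98219 in KO2 and at most 7.21 in the other 4 libraries, so each group held 1 library with it. The part of these differences in the results below was not tested. All values are from bulk RNA, in which fewer cells of a type and less RNA per cell cannot be told apart.

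Few members of the respiratory chain differed between WT and hnRNPL-deficient cells, and the largest differences were in a pair of complex IV isoforms that were scarce in WT cells. At an adjusted p under 0.1 by limma, 5 of the 101 tested members were higher in KO (*Cox6b2*, *Cox6a2*, *Cox17*, *Ndufaf3* and *Ndufv3*), which is 4.95% against 10.0% of all genes tested. *Cox6b2* entered the test only through its level in KO and had to differ, and it is part of every higher count in this paragraph. With a mean of at least 50, where it was not tested, 4 of 99 members were higher (4.04% against 10.5%). Only *Ndufa12* was lower, 0.99% of the members against 7.97% of all genes. With a change of at least 1.5-fold as a second condition, 4 members were higher (3.96% against 7.28%) and none was lower (against 4.08%). At an unadjusted p under 0.05 by limma, 5 members were higher (4.95% against 14.4% of all genes) and 4 lower (3.96% against 12.9%) at any size of change. In count tests on 5 libraries, without KO2, edgeR and DESeq2 each called 3 members higher and 0 lower at an adjusted p under 0.1. Over all genes edgeR called 8.22% higher and 5.24% lower, and DESeq2 9.10% and 7.50%. For 7 members every KO library was above every WT library (6.93% against 17.7% of all genes), and for 8 every KO library was below (7.92% against 16.3%). The first group adds *Ndufa6* and *Ndufaf1* to the 5 genes above, and the other holds *Ndufa12*, *Ndufaf2*, *Sdhd*, *Uqcrh*, *Cox10*, *Atp5b*, *Atp5c1* and *Atp5g3*. The 95% interval of the log2 fold change lay within 1.5-fold in either direction for 73 of the 101 members (72.3%), against 34.4% of all genes. The width of an interval depends on the abundance of the gene, and the members were not set against genes of like abundance. The members differ widely in level. Per kb of exon, 60 of the 110 reached 1000 normalized counts on average in WT, and the 3 highest were *Cox8a* (17219.5), *Cox6b1* (13117) and *Atp5b* (8731). The members together made up 0.517% to 0.594% of the normalized counts of a library, with KO3 the lowest and WT2 the highest. Among the members, the median coefficient of variation over 3 libraries was 9.56% in WT and 14.2% in KO, and the median distance from the estimate to the bound of its interval was 0.31 on the log2 scale.

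**Figure D1:**
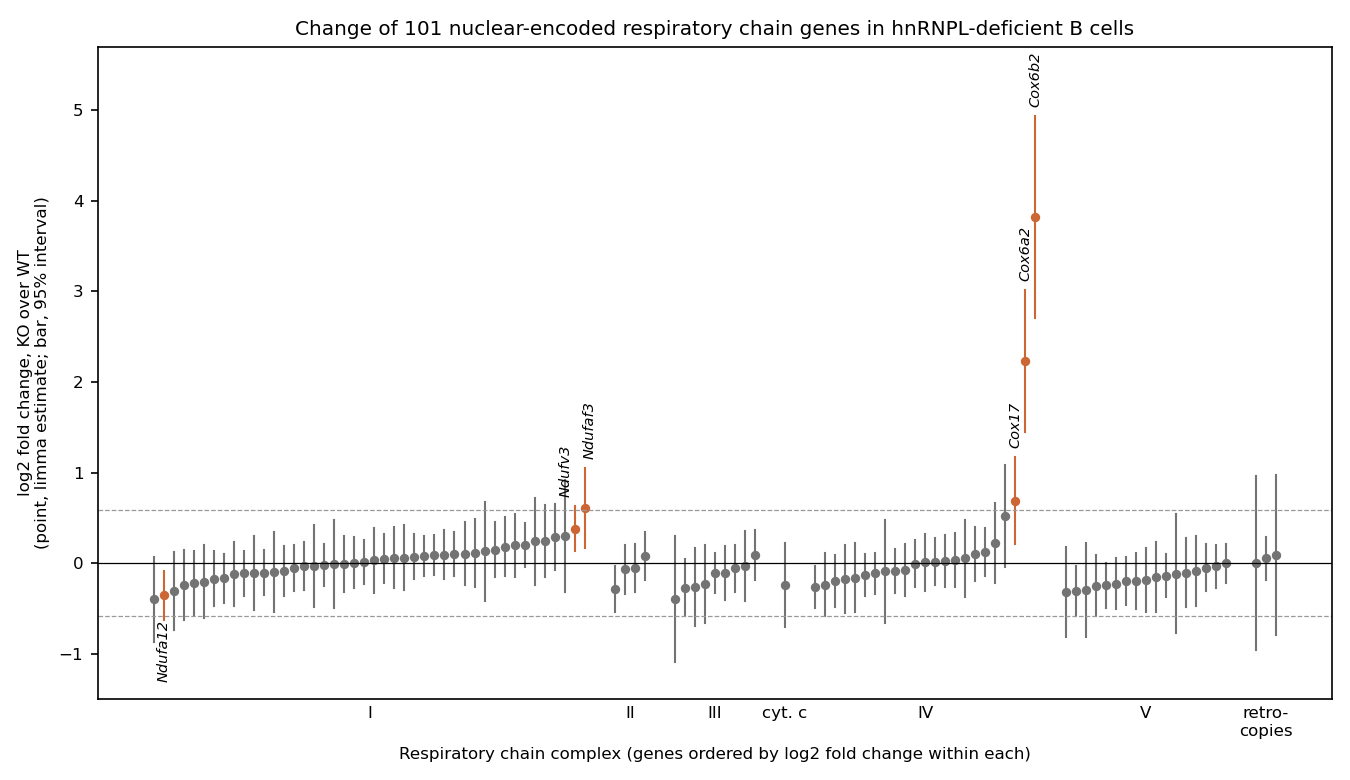
The log2 fold change of KO over WT is plotted for the 101 tested members, grouped by complex and ordered by size within each, with points for the limma estimates, bars for 95% intervals and dashed lines at 1.5-fold. The 6 members past an adjusted p of 0.1 are orange and named, and *Cox6b2* (3.82) and *Cox6a2* (2.23) stand far above the others, of which 73 have intervals inside the dashed lines.

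*Cox6b2* had the largest estimate among the 101 tested members. It encodes the form of subunit VIb of complex IV that is known from testis, and VIb lies on the intermembrane side of the complex. The gene (chr7:4751792-4753094, minus strand in GRCm38) was counted at 1.16, 2.59 and 6.12 normalized counts in WT1 to WT3 and 48.7, 63.6 and 48.0 in KO1 to KO3. In the libraries whose reads could be recovered these are 1, 3 and 8 reads in WT1 to WT3, and 54 and 35 reads in KO1 and KO3. All 3 KO libraries were thus far above the highest WT library, while WT1 was under and WT2 at the limit of 3 reads. Means were 3.29 ± 2.55 in WT and 53.4 ± 8.83 in KO (SD, n = 3 each), a ratio of 16.2, and the log2 fold change was 3.82 (adjusted p = 0.00277 by limma, SE 0.488). Its WT mean was under the limit of 10 for testing, so the gene was tested only through its level in KO and had to differ, and its p is given as a description. Members low in both groups were not tested. With no filter on low values the adjusted p by limma was 0.00183, and over 17 alternative analyses the estimate lay between 2.85 and 4.28. With a mean of at least 50, where *Cox6b2* was not tested, 4 of 99 members were higher. The widely used paralog *Cox6b1* stood at 10247, 8473 and 9140.1 normalized counts in WT1 to WT3 and 9435, 8492 and 8284 in KO1 to KO3, a log2 fold change of -0.086 (95% interval -0.33 to 0.15). Per kb of exon, *Cox6b1* had 13117 ± 1266 in WT and 12340.4 ± 866 in KO, against 2.97 ± 2.30 in WT and 48.2 ± 7.97 in KO for *Cox6b2*. Of the summed level of both paralogs per kb, *Cox6b2* made up 0.00724% to 0.0428% in WT and 0.329% to 0.476% in KO, so the testis form remained a small part of the VIb transcripts in every library. The longest run of letters that the annotated transcripts of the pair share is 14 bases, shorter than the reads of 100 bases. Within 10 kb of *Cox6b2*, the only other gene with at least 5 normalized counts in any library was *Kmt5c* on the opposite strand, at 894, 981 and 990 in WT1 to WT3 and 777, 852 and 762 in KO1 to KO3. *Hnrnpl* is on the same chromosome, 24.06 Mb away.

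*Cox6a2*, the heart and skeletal muscle form of subunit VIa, which in complex IV takes part in the response to ATP and ADP, had the next largest change. It lies at chr7:128205435-128206387, minus strand, and stood at 15.1, 31.1 and 21.4 normalized counts in WT1 to WT3 and 142, 89.9 and 91.8 in KO1 to KO3. The lowest KO library was well above the highest WT library, and the groups did not overlap. Means were 22.5 ± 8.08 in WT and 108 ± 29.3 in KO (SD, n = 3 each), a ratio of 4.78, with a log2 fold change of 2.23 (adjusted p = 0.00591 by limma, SE 0.345). Under 18 alternative analyses the estimate ran from 1.99 to 2.49, past the threshold in all of them. Its paralog *Cox6a1*, the form of most tissues, was at 2409, 2883 and 2417 normalized counts in WT1 to WT3 and 2800.2, 3353 and 1989 in KO1 to KO3, a log2 fold change of 0.051 (95% interval -0.37 to 0.47). The level of *Cox6a2* per kb was 33.1 ± 11.9 in WT and 158 ± 43.1 in KO, that of *Cox6a1* 3660.2 ± 386 in WT and 3866 ± 977 in KO. The muscle form thus made up 0.642% to 1.10% of the pair per kb in WT and 2.69% to 4.96% in KO, without overlap between the groups. The transcripts of this pair share at most 12 bases in a row. The exons of *Cox6a2* overlap those of *Itgad* on the opposite strand over 70 bases, where *Itgad* was at 0 in all 6 libraries, and no other gene within 10 kb reached 5 normalized counts in any library. The reads were counted by strand. *Cox6a2* and *Hnrnpl* are 99.38 Mb apart on chromosome 7.

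The promoters of 3 of these 4 genes are given to show how the isoform that was higher differs in its start region from 2 widely expressed partners, and *Cox6a2* had no entry in the table used.
Each runs from 250 bases before to 50 bases after the annotated start and is written 5′ to 3′ along the gene (RefSeq, GRCm38.p6, minus strand in all 3), with the searched motifs in capitals. They are *Cox6b2* at chr7:4753045-4753344, *Cox6b1* at chr7:30626065-30626364 and *Cox6a1* at chr5:115348909-115349208.

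Cox6b2: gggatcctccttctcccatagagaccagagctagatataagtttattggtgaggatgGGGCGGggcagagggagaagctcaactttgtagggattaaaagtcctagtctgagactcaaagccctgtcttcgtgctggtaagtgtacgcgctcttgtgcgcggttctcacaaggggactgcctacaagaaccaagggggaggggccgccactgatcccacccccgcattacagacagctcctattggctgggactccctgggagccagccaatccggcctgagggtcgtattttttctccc

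Cox6b1: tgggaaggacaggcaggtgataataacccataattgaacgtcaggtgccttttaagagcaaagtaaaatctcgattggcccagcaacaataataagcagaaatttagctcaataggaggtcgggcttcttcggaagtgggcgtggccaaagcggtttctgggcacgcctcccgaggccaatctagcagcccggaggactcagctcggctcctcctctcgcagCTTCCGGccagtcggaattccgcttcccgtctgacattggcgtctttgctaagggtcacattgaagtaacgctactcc

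Cox6a1: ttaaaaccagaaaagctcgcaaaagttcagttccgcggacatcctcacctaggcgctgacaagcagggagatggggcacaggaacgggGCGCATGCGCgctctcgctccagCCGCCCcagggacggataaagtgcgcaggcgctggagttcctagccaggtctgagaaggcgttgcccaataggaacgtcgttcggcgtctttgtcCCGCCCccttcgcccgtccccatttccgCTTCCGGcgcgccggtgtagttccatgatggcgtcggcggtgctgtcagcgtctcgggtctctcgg

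The *Cox6b2* window held 1 GC box (GGGCGG) and none of the NRF1, ETS or YY1 cores. The *Cox6b1* window held 1 ETS core, read on the other strand as CTTCCGG. In *Cox6a1* there were an ETS core, a pair of GC boxes on the other strand and a pair of overlapping NRF1 cores, 1 on each strand. A match is only a match of letters, and no binding was measured here.

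The remaining tissue forms were absent or nearly so in both groups. *Cox4i2* (the lung form of subunit IV), *Cox8b* (heart and muscle), *Cox8c* and *Cox7b2* (both known from testis) were at 0 in all 6 libraries, where 3 reads would correspond to 2.29 to 4.11 normalized counts. *Cox7a1*, the muscle form of subunit VIIa, stood at 5.80, 4.32 and 5.35 in WT1 to WT3 and 8.11, 4.04 and 2.74 in KO1 to KO3, and *Ndufa4l2*, a hypoxia-induced relative of *Ndufa4*, at 0, 0 and 2.29 in WT1 to WT3 and 0, 1.01 and 0 in KO1 to KO3. These 6 genes were under the limit for testing. The groups overlapped for *Cox7a1* and *Ndufa4l2*. The form used in most tissues was in each case abundant. *Cox8a* stood at 10414, 10662 and 10899.8 in WT1 to WT3 and 12425, 11340.3 and 9031 in KO1 to KO3, and per kb it was the highest of all members (17219.5 ± 392 in WT and 17661 ± 2800.3 in KO). *Cox4i1* was at 4223, 5282 and 4641 in WT1 to WT3 and 4608, 4869.5 and 3206 in KO1 to KO3, with a log2 fold change of -0.18 (95% interval -0.56 to 0.21). For *Cox7b*, which encodes subunit VIIb, the values were 9312, 8766 and 8355 in WT1 to WT3 and 8917, 7973 and 7608 in KO1 to KO3. *Cox7a2*, the VIIa form of most tissues, varied widely, at 966, 1649.7 and 1163 in WT1 to WT3 and 1242, 1484 and 833 in KO1 to KO3. *Cox7a2l* was placed here as a factor linked to the joining of complexes III and IV into supercomplexes, and its protein was not measured. It was steady in WT, at 4499, 4430.3 and 4503 in WT1 to WT3 and 4431, 4199 and 3651 in KO1 to KO3. *Ndufa4*, counted with complex IV because its protein is a subunit of that complex in spite of its name, was at 7345, 5347 and 5934 in WT1 to WT3 and 6607, 5861 and 6467 in KO1 to KO3. None of these 6 passed the test, with log2 fold changes from -0.18 to 0.035.

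**Figure D2:**
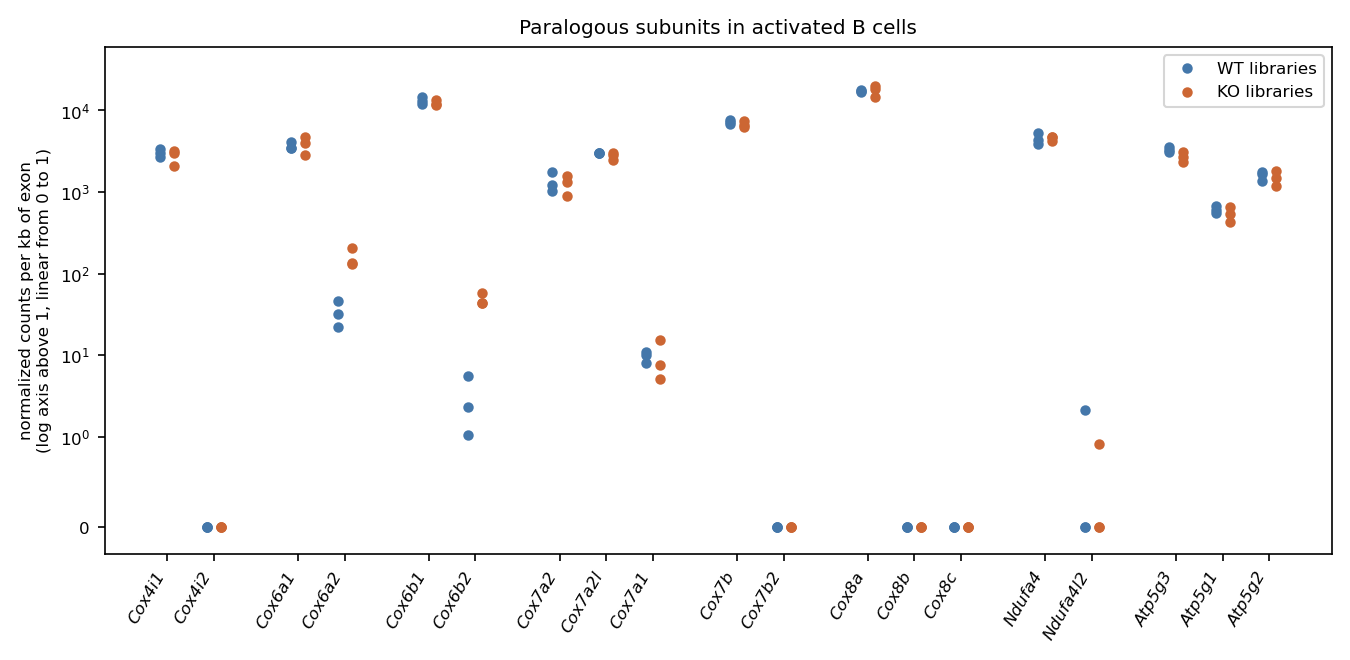
Normalized counts per kb of exon are plotted on an axis that is logarithmic above 1 for the paralogous subunits of complexes IV and V, with 1 point per library, WT in blue and KO in orange. Among the complex IV forms the WT and KO libraries separate for *Cox6a2* and *Cox6b2*, and even in KO they stay below their partners *Cox6a1* and *Cox6b1* in every library.

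The 11 complex IV subunits other than the tissue forms had a median log2 fold change of -0.086, and none passed the test. *Cox5a* and *Cox5b*, which sit next to the catalytic core, are examples. *Cox5a* was at 3578, 4349.9 and 3558 in WT1 to WT3 and 3841, 3909 and 2632 in KO1 to KO3, with a log2 fold change of -0.16 (95% interval -0.54 to 0.22). *Cox5b* was at 4892, 4793 and 4803 in WT1 to WT3 and 5091, 5441 and 4194 in KO1 to KO3, and its estimate was 0.015 (95% interval -0.24 to 0.27). In both, KO3 was the lowest of the 6 libraries and the groups overlapped.

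Of the 9 complex IV assembly factors, *Cox17* was higher in KO. It encodes the copper chaperone of the mitochondrial intermembrane space, which hands copper on for insertion into the enzyme. At chr16:38346991-38352763, plus strand, it was counted at 233, 350.2 and 248 normalized counts in WT1 to WT3 and 418, 382 and 535 in KO1 to KO3. Every KO library was above every WT library, though KO2 exceeded WT2 by little. The log2 fold change was 0.69 (adjusted p = 0.0704 by limma, SE 0.21). It was past the threshold in 12 of 18 alternative analyses, with adjusted p from 0.0243 to 0.207. It was lost without WT1 (adjusted p = 0.161 by limma), without WT3 (0.207), without KO1 (0.124) and without KO3 (0.17). *Gm21987*, annotated on the same strand, shares 257 exon bases with *Cox17* and was at 0 in all 6 libraries. *Cox16*, another assembly factor, stood at 139, 233 and 203 in WT1 to WT3 and 225, 256 and 339.9 in KO1 to KO3 and did not pass the test (log2 fold change 0.52, 95% interval -0.045 to 1.09). It shares 2130 exon bases with *Gm20498* on the same strand. *Cox10*, which makes haem o for the haem a cofactor, was lower in all 3 KO libraries, at 2736, 2319.8 and 2453 in WT1 to WT3 and 2092, 2035 and 2111 in KO1 to KO3, with a log2 fold change of -0.26 (95% interval -0.50 to -0.032) and an adjusted p of 0.136 by limma. The 9 factors had a median log2 fold change of 0.10, with 5 above 0.

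**Figure D3:**
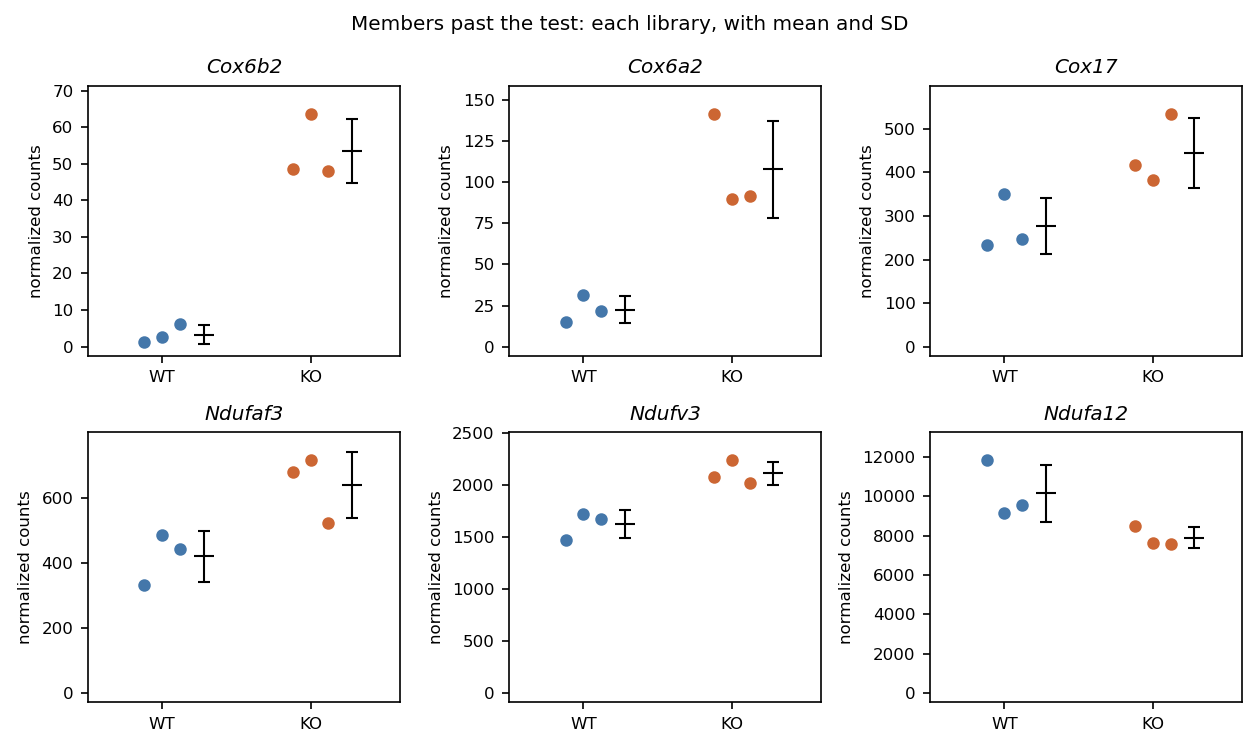
Normalized counts of the 6 members past the test are plotted for each library, WT in blue and KO in orange, with the mean and SD in black beside each group, on linear axes that include 0. The groups do not overlap for any of the 6, and the separation is widest for *Cox6b2* (1.16 to 6.12 against 48.0 to 63.6).

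In complex I, with 44 members all of which were tested, 2 were higher in KO and 1 was lower, and the median log2 fold change was 0.02 with 24 of 44 above 0. Its sign turned when a library was left out, with -0.018 without WT3, -0.035 without KO1 and -0.05 without KO2, while it was 0.107 without KO3, 0.062 without WT2 and 0.016 without WT1. *Ndufv3*, an accessory subunit of the NADH-oxidising module, was higher. It lies at chr17:31520115-31531331, plus strand, and stood at 1473, 1721 and 1676 normalized counts in WT1 to WT3 and 2081, 2236 and 2019 in KO1 to KO3. The lowest KO library was above the highest WT library. The log2 fold change was 0.38 (adjusted p = 0.0558 by limma, SE 0.108), below 1.5-fold, and it was past the threshold in 10 of 18 alternative analyses. Without any 1 library other than KO3 the adjusted p by limma was between 0.113 and 0.163, and without KO3 it was 0.078. *Wdr4*, which lies 135 bases away on the opposite strand, was at 1454, 2064 and 1799 in WT1 to WT3 and 1234, 1540 and 1188 in KO1 to KO3. *Ndufaf3*, an assembly factor for the arm that carries the quinone-binding site, was also higher (chr9:108565537-108567434, minus strand). It stood at 332, 485 and 441 normalized counts in WT1 to WT3 and 679.8, 714 and 522 in KO1 to KO3, with KO3 the lowest of the KO libraries and just above WT2. Its log2 fold change was 0.61 (adjusted p = 0.078 by limma, SE 0.192), past the threshold in 11 of 18 alternatives. It was lost without WT1 (adjusted p = 0.169 by limma), WT3 (0.159), KO1 (0.173) or KO2 (0.201). Its exons overlap those of *Impdh2* on the opposite strand. *Impdh2*, far more abundant, was at 17080, 16360 and 14930 in WT1 to WT3 and 14270, 14470 and 10510 in KO1 to KO3. *Ndufa12*, an accessory subunit of the peripheral arm, was the single member that was lower (chr10:94198720-94221443, plus strand). It stood at 11816, 9128 and 9531 normalized counts in WT1 to WT3 and 8502, 7624 and 7549.5 in KO1 to KO3. All 3 KO libraries were below all WT libraries, and WT1 was well above the other 5. The log2 fold change was -0.36 (adjusted p = 0.094 by limma, SE 0.119). It was past the threshold in 6 of 18 alternatives, the fewest of the 6 members, and in none of those that left out a library (WT1, WT2, WT3, KO1, KO2 or KO3), where the adjusted p by limma ran from 0.117 to 0.21.

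No nuclear-encoded core subunit of complex I, the proteins that carry the flavin and the iron-sulfur clusters, passed the test. In the 6 described here log2 fold changes ran from -0.11 to 0.13, 2 above 0 and 4 below. *Ndufv1*, which binds NADH and the flavin, was at 1384, 1817 and 1526 in WT1 to WT3 and 1637, 1759 and 1084 in KO1 to KO3. *Ndufv2*, its iron-sulfur partner, was at 4926, 3862 and 3927 in WT1 to WT3 and 4327, 3958 and 4086 in KO1 to KO3. The largest core subunit, *Ndufs1*, which holds several iron-sulfur clusters, was at 7489, 6362 and 5957 in WT1 to WT3 and 6411, 5819 and 6114 in KO1 to KO3. In these 3 the groups overlapped. *Ndufs7*, which carries the iron-sulfur cluster nearest to ubiquinone, was at 2691, 2401 and 2445 in WT1 to WT3 and 2699, 2701 and 2529 in KO1 to KO3. *Ndufs3*, a subunit of the connecting module, was at 2893, 2978 and 2559 in WT1 to WT3 and 2726, 2704 and 2363 in KO1 to KO3. *Ndufs8*, which carries a pair of iron-sulfur clusters, was at 1186, 1857 and 1107 in WT1 to WT3 and 1478, 1918 and 1135 in KO1 to KO3, and had the widest interval of the 6 (log2 fold change 0.13, 95% interval -0.41 to 0.68). WT2 and KO2 were both high for *Ndufs8*, and the spread within each group exceeded the difference between them. *Ndufa6*, an accessory subunit of the matrix arm, and *Ndufaf1*, an early assembly factor, did not pass the test although their groups did not overlap. *Ndufa6* was at 1923, 1967 and 1743 in WT1 to WT3 and 2340.4, 2127 and 2027 in KO1 to KO3, and *Ndufaf1* at 1098, 1062 and 1040.0 in WT1 to WT3 and 1195, 1102 and 1132 in KO1 to KO3. Of the 29 accessory subunits 17 were above 0 and 12 below, with a median of 0.03. Of the 8 assembly factors, 4 were above 0 and 4 below. *Ndufaf2*, another assembly factor, was at 448, 462 and 424 in WT1 to WT3 and 371, 415 and 247 in KO1 to KO3, lower in every KO library but with an interval that includes 0 (log2 fold change -0.40, 95% interval -0.87 to 0.07).

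None of the 4 genes of complex II passed the test, and all 4 had intervals within 1.5-fold. *Sdha*, the flavin subunit that oxidises succinate, was at 9357, 8788 and 8074 in WT1 to WT3 and 10306, 9365 and 8074 in KO1 to KO3, with a log2 fold change of 0.077 (95% interval -0.19 to 0.34). *Sdhb*, the iron-sulfur subunit, was at 4207, 4085 and 3748 in WT1 to WT3 and 4257, 3974 and 3302 in KO1 to KO3, and the membrane anchor *Sdhc* at 2769, 2953 and 2768 in WT1 to WT3 and 2834, 3033 and 2369.8 in KO1 to KO3. *Sdhd*, the other membrane anchor, was the exception in that all KO libraries were below all WT libraries, at 3997, 3845 and 3589.7 in WT1 to WT3 and 3460.1, 3216 and 2760.5 in KO1 to KO3. Its log2 fold change was -0.28 (95% interval -0.54 to -0.026), with an adjusted p of 0.147 by limma.

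For complex III, 8 of 9 genes had an estimate below 0 and none passed the test. The median log2 fold change was -0.11, against -0.03 over all genes tested. It was -0.026 with quantile normalization, where the median of all genes was -0.025, and -0.054 with equal totals, where that of all genes was 0.028. Without KO3 it was -0.051, without KO1 -0.208, and without any other library between -0.159 and -0.098. *Uqcrfs1*, the Rieske iron-sulfur subunit, was at 2907, 3210.3 and 2436 in WT1 to WT3 and 2828, 2645 and 1752 in KO1 to KO3, and *Cyc1*, the cytochrome c1 subunit, at 2973, 3759 and 3260.1 in WT1 to WT3 and 3054, 3524 and 2085 in KO1 to KO3. In both, KO3 was the lowest library by a wide margin, while KO1 and KO2 lay within the range of WT. *Uqcrc1*, a large subunit on the matrix side, was at 4212, 5618 and 4763 in WT1 to WT3 and 5237, 5488 and 3699 in KO1 to KO3, an estimate of -0.028 (95% interval -0.41 to 0.36). *Uqcrh*, the hinge subunit, was below WT in every KO library, at 1669, 1773 and 1710.0 in WT1 to WT3 and 1544, 1608 and 1162 in KO1 to KO3, with an adjusted p of 0.253 by limma. *Cycs*, the mobile electron carrier cytochrome c itself and also a trigger of apoptosis when released, was at 27279, 16858 and 16700.3 in WT1 to WT3 and 19976, 14243 and 16293 in KO1 to KO3. WT1 was well above the other 5 libraries, which overlapped, and the log2 fold change was -0.24 (95% interval -0.71 to 0.22). Without WT1 it was -0.0091.

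In complex V all 17 tested genes had an estimate below 0, from -0.32 to -0.0031, with a median of -0.19 against -0.03 over all genes, but none passed the test. The count was 14 of 17 with libraries scaled to equal totals (median -0.13, against 0.028 over all genes), 15 with quantile normalization (median -0.104, against -0.025) and 12 without KO3 (median -0.058). Leaving out any other library gave medians between -0.265 and -0.113. All 5 genes of the F1 head, which makes ATP, were below 0. *Atp5b*, the catalytic beta subunit and the most abundant member by count, was at 37359, 38489 and 35137 in WT1 to WT3 and 34211, 34906 and 27976 in KO1 to KO3. *Atp5a1*, the alpha subunit, was at 21278, 23620.4 and 20014 in WT1 to WT3 and 20504, 20986 and 15495 in KO1 to KO3. *Atp5c1*, the gamma subunit of the central stalk, was at 6317, 5809 and 5583 in WT1 to WT3 and 5402, 5199 and 4383 in KO1 to KO3, with a log2 fold change of -0.24 (95% interval -0.50 to 0.0062). For *Atp5b* and *Atp5c1* each KO library was below each WT library, though in *Atp5b* KO2 was close to WT3, and *Atp5a1* overlapped. The 3 genes for the proton-carrying c ring, *Atp5g1*, *Atp5g2* and *Atp5g3*, encode the same mature protein. *Atp5g3* was the highest of them per kb (3327 ± 218 in WT and 2707 ± 380.4 in KO), and was counted at 7774, 7161 and 6836 in WT1 to WT3 and 6776, 5808 and 5125 in KO1 to KO3. Its groups did not overlap, and its log2 fold change was -0.31 (95% interval -0.58 to -0.031), with an adjusted p of 0.143 by limma. Without KO1 the log2 fold change was -0.41 and the adjusted p by limma 0.0897, past the threshold. *Atp5g1* was at 2720.2, 3280.3 and 2932 in WT1 to WT3 and 2641, 3184 and 2116 in KO1 to KO3, and *Atp5g2* at 2308, 2938 and 2779.8 in WT1 to WT3 and 2523, 3027 and 1972 in KO1 to KO3, and in both the groups overlapped. For 14 of the 17 genes the interval lay within 1.5-fold in either direction.

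The level of each complex in each library was then read library by library. The mean over genes of log2(normalized count + 1), relative to the mean of the WT libraries, was -0.15 in KO3 for complex I, -0.28 for complex II, -0.45 for complex III, -0.29 for the complex IV subunits and -0.41 for complex V. For the same sets KO1 lay between -0.089 and 0.095 and KO2 between -0.013 and 0.12, while the WT libraries ran from -0.081 to 0.13. KO1 and KO2 thus lay near the WT libraries, and KO3 was the lowest library for all of these sets. KO3 was the lowest of the 6 libraries for 59 of the 101 members. Among them were 15 of 17 in complex V, 8 of 9 in complex III and 3 of 4 in complex II. How many of all genes tested were lowest in KO3 was not counted, so these counts have no background beside them. By the same mean as above, the 17 assembly factors were not low in KO3, with 0.12, 0.12 and 0.010 in KO1 to KO3. Over all genes tested that mean in KO3 was 0.070. KO3 is also the shallowest library, and the part of depth in these values was not tested. Deviations from the group mean were related to GC content over the 101 members, as a description over genes that share libraries. Spearman's rho was -0.45, 0.30 and 0.46 in WT1 to WT3 and -0.14, 0.45 and -0.39 in KO1 to KO3. The relation was not particular to the members. Over 17589 tested genes rho was -0.236, 0.176 and 0.223 in WT1 to WT3 and 0.0353, 0.388 and -0.365 in KO1 to KO3. With a correction for GC content the complex V median was -0.191, with 17 of 17 below 0.

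**Figure D4:**
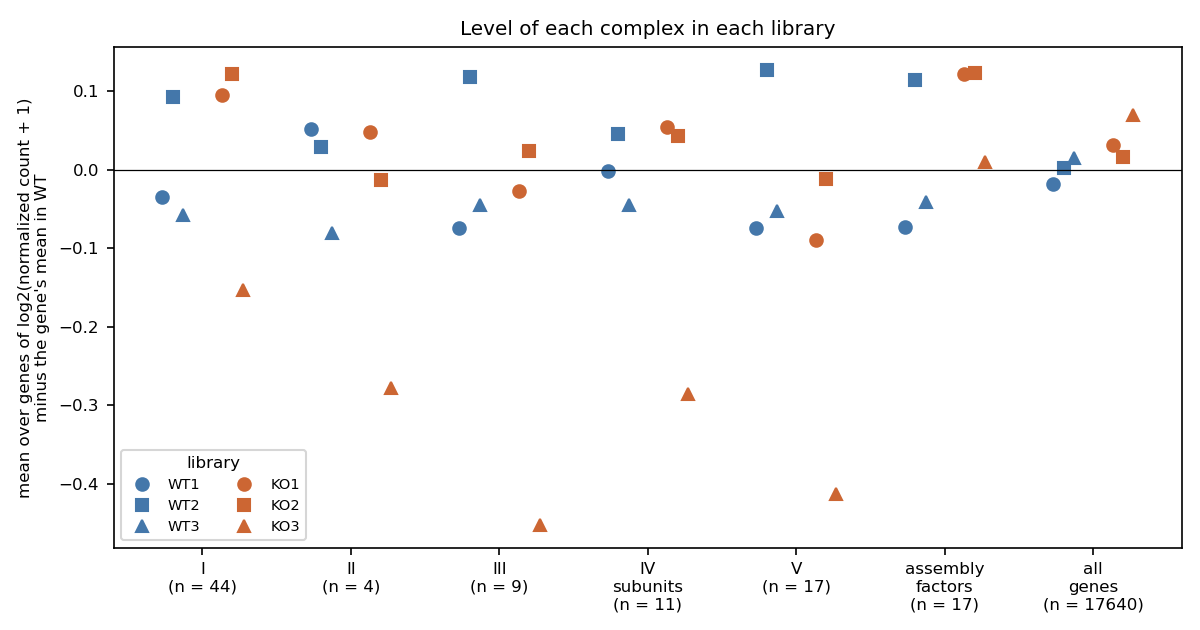
The mean over genes of log2(normalized count + 1), minus each gene's mean over the WT libraries, is plotted for each library (symbol for the replicate, blue for WT and orange for KO), for complexes I, II, III and V, complex IV subunits other than tissue forms, assembly factors and all genes tested. KO3 is the lowest point for complexes I, II, III and V and for the complex IV subunits, from -0.45 to -0.15, while KO1 and KO2 lie near the WT points.

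The rule also took in 5 processed pseudogenes, copies of mRNAs set back into the genome, none of which passed the test. *Ndufb4c* is identical over its whole length of 390 bases to a stretch of *Ndufb4*, so reads of one could be counted for the other and both values are uncertain. *Ndufb4c* was at 1502, 1376 and 1516 in WT1 to WT3 and 1591, 1439.8 and 1536 in KO1 to KO3, and *Ndufb4* at 1971, 1971 and 2140.5 in WT1 to WT3 and 2199.8, 2112 and 2153 in KO1 to KO3. *Cox6c2* and *Ndufa11b* share runs of 109 and 79 bases with *Cox6c* and *Ndufa11*. *Cox6c2* was at 121, 56.2 and 91.0 in WT1 to WT3 and 119.9, 46.4 and 111 in KO1 to KO3, and *Ndufa11b* between 8.12 and 13.8. *Cox20b* was at most 1.37, *Ndufs6b* was at 3.48, 1.73 and 1.53 in WT1 to WT3 and 6.31, 3.03 and 6.85 in KO1 to KO3, and both were under the limit for testing, as was the second identifier of *Atp5o*, at 0 in all libraries.

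Promoters could be looked up for 83 of the members. Of these, 13 (15.7%) held the NRF1 core GCGCATGC, against 2.8% of 27025 mouse promoters of the same length, 23 (27.7%) the ETS core CCGGAAG that GABP binds, against 9.1%, and 11 (13.3%) the YY1 core AAGATGGC, against 2.9%. NRF1, GABP and YY1 are textbook activators of respiratory genes. Any of these 3 was in 39 promoters (47.0%), against 13.8% of all. The GC box GGGCGG was in 48.2% against 35.9%, and the E-box CACGTG, a MYC site, in 6.0% against 7.2%. Both strands were read, none of the 5 motifs contains another, and the reference promoters include those of genes not expressed in B cells. Median log2 fold changes with and without a motif were -0.028 and -0.049 for the NRF1 core, -0.069 and -0.029 for the ETS core, -0.011 and -0.069 for the YY1 core, and -0.049 and -0.035 for the GC box. For the E-box, with 5 members, the median was -0.185, against -0.031 in the other 75 tested members with a promoter. None of the 4 members past the test that had a promoter entry (*Cox6b2*, *Ndufv3*, *Ndufaf3* and *Ndufa12*) held the NRF1, ETS or YY1 core, and each held at least 1 GC box.

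Other genes of the pathway were read beside the members. For comparison, 10.0% of all genes tested were higher in KO and 7.97% lower at an adjusted p under 0.1 by limma. Of the 13 protein-coding genes of mitochondrial DNA, 2 were higher in KO and none lower at an adjusted p under 0.1 by limma, with a median log2 fold change of 0.24. These were *mt-Cytb* (log2 fold change 0.65, adjusted p = 0.0291 by limma, SE 0.15) and *mt-Atp6* (log2 fold change 0.63, adjusted p = 0.0827 by limma, SE 0.204). The groups did not overlap for *mt-Cytb*. For *mt-Atp6* they overlapped, with WT1 (314646) above KO2 (311068). Of 41 assembly factors that the rule did not take in, 40 were tested. Of these 1 was higher, the complex I factor *Tmem126b* (log2 fold change 0.62, adjusted p = 0.0681 by limma, SE 0.187), and 1 lower, the complex III factor *Lyrm7* (log2 fold change -0.65, adjusted p = 0.0227 by limma, SE 0.141), and the median was 0.05. *Tmem126b* was at 665, 856 and 522 in WT1 to WT3 and 1152, 957 and 980.0 in KO1 to KO3, and *Lyrm7*, which guides the insertion of the Rieske protein, was at 485, 447 and 502 in WT1 to WT3 and 310.1, 285 and 317 in KO1 to KO3, without overlap in either. Of 17 regulators of respiratory gene expression 15 were tested, of which 0 were higher and 4 were lower. *Ppargc1b*, the coactivator PGC-1β, was at 794, 907 and 932 in WT1 to WT3 and 401, 588 and 397 in KO1 to KO3, a log2 fold change of -0.95 (adjusted p = 0.0135 by limma, SE 0.179). The other 3 were *Lrpprc* (-0.59, adjusted p = 0.0088 by limma), *Gabpb2* (-0.51, adjusted p = 0.0124 by limma) and *Myc* (-0.44, adjusted p = 0.0976 by limma). The groups did not overlap for *Lrpprc* and *Gabpb2*. For *Myc* they overlapped, at 12339, 15369 and 14595 in WT1 to WT3 and 9698, 12773 and 8956 in KO1 to KO3. This change was below 1.5-fold. The paper, whose calls also ask for at least 1.5-fold, states that *Myc* was not significantly changed in hnRNPL-deficient B cells. It also lists *Myc* among the genes that B cells raise on activation, and reports that hnRNPL-deficient cells failed to make these changes. *Tfam*, which packages and transcribes mitochondrial DNA, did not pass the test, at -0.31 (95% interval -0.62 to 0.0017, adjusted p = 0.185 by limma). The paper, which tested the RNA-seq with DESeq2, reports *Tfam* as significantly reduced. *Nrf1* was at 0.015 (95% interval -0.25 to 0.28), *Gabpa* at -0.18 (95% interval -0.43 to 0.071) and *Esrra* at 0.049 (95% interval -0.32 to 0.42).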

How the data were processed

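Splenic B cells activated with LPS and IL-4 were analysed by RNA-seq in 3 WT and 3 hnRNPL-deficient libraries, grouped by the submitters' labels, which name no batch. The study gives 3 mice for each group, and p-values measure the spread between these libraries. Poly(A) RNA libraries were stranded and sequenced as paired ends of 100 bases. The authors trimmed reads with fastp 0.23.1, aligned them to mm10 with STAR 2.7.9a, counted them per gene and strand with featureCounts and GENCODE annotation, and divided the counts by DESeq2 1.38.2 size factors. The deposited values are these normalized counts, a signal that is not a whole number. The deposited table also holds the authors' own comparison (mean, log2 fold change with its error, statistic and p-values), which was not used.

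Values were whole multiples of 1 read (tolerance 0.001) in every library. The automatic test for this did not accept KO2, whose smallest value is close to 1, so count tests used the 5 other libraries. Depth was 40395186 to 75180749 reads, which gives the limits of 3 reads stated, for counting error only. limma 3.58.1 (R 4.3.3), with a mean-variance trend, was run on log2(normalized count + 1) where a gene's mean reached 10, with two-sided p-values under Benjamini-Hochberg adjustment over all 17640 genes and a threshold of 0.1. Fold changes on that scale understate the change of low genes. edgeR 4.0.16 and DESeq2 1.42.0 were alternatives, as were other pseudocounts, filters and scalings, the replicate number as a block, each library left out, a sex covariate and a GC correction. The fit was tested on simulated data.

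Complex, subunit roles and the gene lists came from general knowledge, and the members and lists were chosen with earlier results of these data known. Named were the members past the test, a list of catalytic and cofactor-bearing subunits, the paralogs and the members under the filter. An item of that list is not reported here. *Ndufa6*, *Ndufaf1*, *Uqcrh*, *Cox10*, *Cox16*, *Ndufaf2*, *Ndufb4*, *Kmt5c*, *Wdr4*, *Impdh2*, *Tmem126b*, *Lyrm7*, *mt-Cytb*, *mt-Atp6*, *Ndufa13*, *Lrpprc*, *Gabpb2*, *Myc* and the marker genes were named after their values were seen. Coordinates, exon lengths and overlaps are from GENCODE vM21 (GRCm38), an earlier release than the authors', and promoters from RefSeq (GRCm38.p6).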

Additional observations from a re-analysis of the deposited data

How the results depend on the processing

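The numbers of members past the test were 5 higher and 1 lower, and 4 higher and 0 lower with 1.5-fold. Leaving out each library in turn gave 2 to 4 higher, 0 to 1 lower and 2 to 4 higher with 1.5-fold. The count of lower members was 0 with no filter on low values, with quantile normalization, with no mean-variance trend, with a sex covariate from *Xist* and in the edgeR and DESeq2 tests on 5 libraries. The higher count was 2 with no trend, 3 with edgeR or DESeq2, 4 with quantile normalization or a mean of at least 50, and 6 with a GC correction, which adds *Ndufa13*, and that with 1.5-fold was 2 with no trend or with quantile normalization. *Cox6a2* was past the threshold in every alternative, and so was *Cox6b2* (not tested at a mean of at least 50), which entered the test through its level in KO.

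Whether the replicate numbers pair the samples could not be settled from the correlations of their deviations. Same-numbered libraries had 0.429, 0.32 and 0.0663, and the block by number is given here only. With the replicate block, 10 members were lower (*Atp5c1*, *Atp5f1*, *Atp5g3*, *Atp5o*, *Cox10*, *Cycs*, *Ndufa12*, *Ndufa7*, *Sdhd* and *Uqcrfs1*) and 6 higher, against 16.5% and 16.4% of all genes. WT1 correlated best with KO1 and WT2 with KO2, but WT3 best with KO2 (0.305). Seen from the other side, each KO library correlated best with the WT library of its number. The margin was small for KO2 (0.305 with WT3) and for KO3 (0.0501 with WT1).

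Single estimates near 0 changed sign in some settings, none past the threshold. With equal totals these log2 fold changes were *Ndufv2* 0.0236, *Sdhc* 0.00456, *Uqcrc1* 0.0272, and with quantile normalization *Ndufs1* 0.00801, *Ndufv2* 0.0523, *Sdhb* 0.0174, *Sdhc* 0.0149, *Uqcrc1* 0.0603, *Cox6b1* 0.0387, *Cox7b* 0.0157. In edgeR on 5 libraries they were *Ndufs8* -0.0485, *Ndufv2* 0.0272, *Cox5b* -0.0218, *Cox6a1* -0.0683, and in DESeq2 *Ndufs8* -0.0674, *Ndufv2* 0.00466, *Cox5b* -0.042, *Cox6a1* -0.0869. With the GC correction they were *Cox5b* -0.00444, *Ndufa4* -0.142. Leaving out 1 library gave ranges of *Ndufs8* -0.0558 to 0.365, *Ndufv1* -0.233 to 0.116, *Ndufv2* -0.094 to 0.0815, *Sdha* -0.00461 to 0.171, *Sdhb* -0.146 to 0.0371, *Sdhc* -0.126 to 0.0518, *Uqcrc1* -0.134 to 0.15, *Cox4i1* -0.289 to 0.0126, *Cox5a* -0.262 to 0.0239, *Cox5b* -0.0635 to 0.124, *Cox6a1* -0.118 to 0.259, *Cox7a2* -0.271 to 0.145, *Cox8a* -0.0746 to 0.156, *Atp5g2* -0.254 to 0.0544, *Ndufa4* -0.0667 to 0.162. The sex covariate, the GC correction and the restriction to 5 libraries were chosen after seeing the data. The cause of these changes was not tested. With 3 libraries a group, the smallest two-sided p that exact permutation allows is 0.1.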
